A study of Mus musculus with 144 samples.

Results

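Liver RNA collected at zeitgeber time (ZT, hours after lights on) 7 was compared between control mice and mice whose adult hepatocytes are labelled as without REV-ERBα and REV-ERBβ, under ad libitum feeding. The comparison used the 6 libraries that the labels give for this tissue, schedule and time, 3 control and 3 knockout, out of 144 in the series. Of the 24421 genes of the deposited table, 12571 passed the filter on low counts and were tested. The 48 ad libitum liver libraries, at 8 times, were fitted together, so the other times lent their spread to the test at ZT7. Every group used here was whole liver, the mice being C57BL/6J males given normal chow, and the sources used here give no ages. The control group carries the genotype label WT and the other is described as an adult hepatocyte REV-ERB a/b double knockout. The deposited columns name the groups GFP and CRE, read here as a control vector and the recombinase, so vector and genotype differ together and cannot be told apart. The reverse-phase-fed livers used below carry the same genotype labels, strain, sex and diet. Nothing in the labels ties a library to a separate animal, and the p-values therefore reflect variation among libraries, which may be technical.

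The 2 REV-ERB proteins, products of Nr1d1 and Nr1d2, are heme-binding nuclear receptors that lack an activation function and repress transcription through the NCoR-HDAC3 corepressor. They bind the ROR response element, an AT-rich stretch followed by the half-site AGGTCA, where they compete with the activating ROR receptors. In the circadian clock CLOCK (or NPAS2) and BMAL1, the product of Arntl, activate Period, Cryptochrome and REV-ERB genes through E-boxes (CACGTG), and REV-ERB in turn represses Arntl. In liver they are also known as regulators of lipid and bile acid metabolism.

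The 6 libraries held 5635963 to 8847332 counts and 14747 to 15262 genes above 0. The 45S ribosomal transcript took 0.43% to 1.03% of counts. Albumin, the main hepatocyte product, took 9.32%, 10.42% and 9.46% of counts in the controls and 6.7%, 5.85% and 7.13% in the knockouts. The liver label was met by defining markers: the 14 tested hepatocyte markers summed to 135511 to 183524 CPM (counts scaled to a common library total, with TMM factors) in every library. Insulin, glucagon and adiponectin had no count in any of the 6 libraries, where 3 counts would be the limit that a count of 0 allows. Within a group, pairs of libraries had a chi-square of 5.82 to 15.35 per degree of freedom over genes, where counting noise alone gives about 1, so none was a repeat of another. Of the ad libitum libraries of other times, control ZT22 replicate 2 held 12.26% of its counts in the 45S transcript, and it and control ZT16 replicate 2 had been set apart in earlier work on these data. Without both, 419 genes were higher and 301 lower in the knockout at ZT7.

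Neither receptor gene was called. Nr1d1 (NM_145434, chromosome 11 of mm9, 98629246 to 98636691, minus strand) had 148, 169 and 159 CPM in the 3 controls and 176, 149 and 157 CPM in the 3 libraries labelled knockout. The groups overlapped, and the fitted log2 fold change was 0.02 ± 0.25 (SE; edgeR adjusted p = 0.989). Nr1d2 (NM_011584, chromosome 14, 19036570 to 19071620) had 101, 92.2 and 90.5 CPM in controls and 118, 108 and 110 CPM in knockouts, a log2 difference of 0.24 ± 0.19 (adjusted p = 0.562), with all knockouts above all controls. ZT7 was the time of the control maximum of Nr1d1, 159 ± 10.7 CPM (SD, n = 3), against 2.33 ± 0.96 CPM at ZT19. Counts run over the whole transcript, and no source used here gives the exons that were removed, so these levels do not check the deletion.

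Against that background 672 genes were called at an adjusted p under 0.05 (edgeR quasi-likelihood test with Benjamini-Hochberg adjustment). Of these, 387 were higher in the knockout (3.08% of tested genes) and 285 were lower (2.27%). Among called genes 155 rose and 74 fell by at least 2-fold, and 41 rose and 10 fell by at least 4-fold. The median log2 fold change was -0.004 over all tested genes, with 5th and 95th percentiles of -0.56 and 0.70. In 661 of the 672 called genes no knockout library overlapped a control library. Groups failed to overlap in 13.1% of all tested genes with the knockout higher and in 13% with it lower. Of the 82 called genes picked for naming, 41 were called in all 6 fits that each left out 1 ZT7 library. In all 6 of these fits 255 of the 672 genes were called, 168 higher and 87 lower. Without control 1 the counts were 197 higher and 146 lower, without control 3 the lower genes numbered 185, and without knockout 2 they numbered 136.

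**Figure D1:**
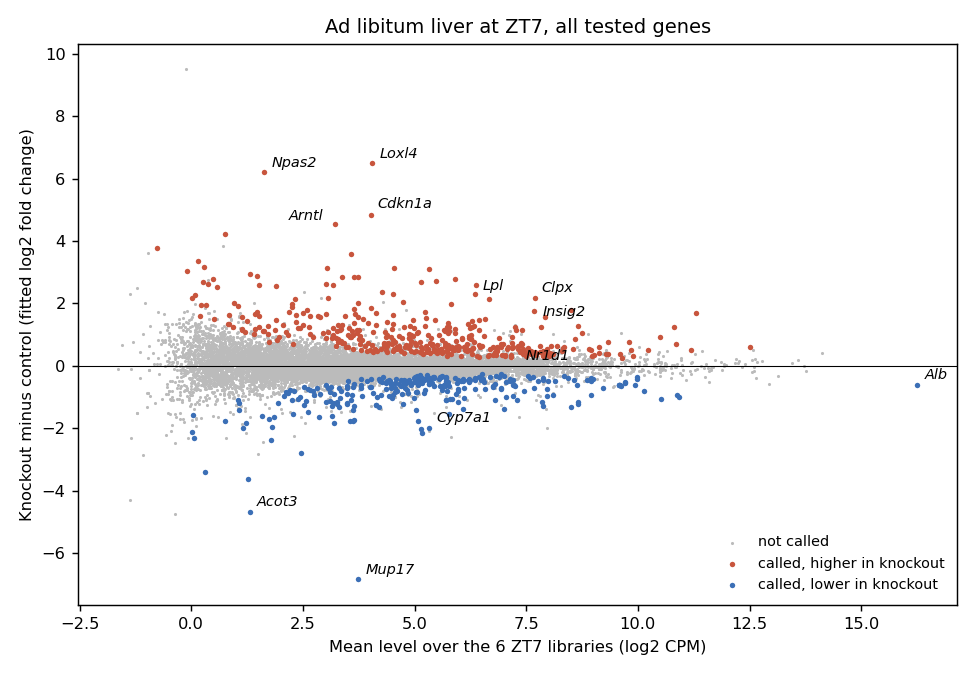
Fitted log2 fold change of knockout over control at ZT7 (vertical axis) against the mean level over the 6 libraries (horizontal axis, log2 CPM), 1 point per tested gene. The 387 genes called higher are red and the 285 called lower are blue, and Loxl4, Npas2, Cdkn1a and Arntl lie highest among the labelled genes while Nr1d1 lies at 0.02.

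Called genes of the clock included activators and repressors. Of the 4 tested activators, Arntl, Npas2 and Clock rose and Arntl2 was not called. Arntl (BMAL1; NM_007489, chromosome 7, 120350979 to 120457640) had 0.89, 3.12 and 1.76 CPM in controls and 44.2, 39.6 and 46.3 CPM in knockouts. All 3 knockout libraries were above all controls, and the log2 fold change was 4.54 ± 0.20 (adjusted p = 3.78e-21), the smallest adjusted p of the 12571 genes. Npas2 (NM_008719, chromosome 1, 39251117 to 39420085), whose product can stand in for CLOCK, had 0.22, 0.30 and 0.18 CPM in controls and 20.2, 15.9 and 19.6 CPM in knockouts. It rose by 6.21 ± 0.44 on the log2 scale (adjusted p = 9.25e-14), from a control level that rested on few counts. Clock (NM_007715, chromosome 5, 76638893 to 76733573) had 30.4, 32.3 and 27.8 CPM in controls and 57.9, 54.7 and 54.3 CPM in knockouts, a smaller rise of 0.88 ± 0.19 (adjusted p = 0.00236). Arntl2, a paralogue of Arntl that is scarce in liver, had 1.93 ± 0.96 and 1.08 ± 0.24 CPM (SD, n = 3 each; log2 difference -0.88 ± 0.42, adjusted p = 0.248).

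Among the 12 tested clock repressors and output factors, Cry1 and Nfil3 rose and the other 10 were not called by edgeR. Cry1 (NM_007771, chromosome 10, 84594445 to 84647799), a repressor of CLOCK-BMAL1, had 3.46, 5.80 and 4.75 CPM in controls and 26.2, 30.7 and 41.5 CPM in knockouts. The rise was 2.84 ± 0.22 (adjusted p = 4.8e-13) with wide separation of the groups. Nfil3 (NM_017373, chromosome 13, 53062578 to 53076408), a repressor that binds the D-box, had 10.5, 14.6 and 17.1 CPM in controls and 89.9, 80.1 and 99.2 CPM in knockouts, a rise of 2.70 ± 0.18 (adjusted p = 1.01e-14). The Period genes did not pass the edgeR test, and DESeq2 called Per2 lower (adjusted p = 0.0339). Per2 had 43.3, 36.3 and 24.1 CPM in controls and 20.9, 23.2 and 19.7 CPM in knockouts (log2 difference -0.71 ± 0.23, adjusted p = 0.0627, or 0.043 without the 2 libraries set apart), and Per1 and Per3 overlapped between groups. Dbp, Tef and Hlf, the PAR bZIP activators that compete with NFIL3, had log2 differences of -0.20, -0.33 and 0.14, none called. By edgeR and DESeq2 alike, none of 11 tested clock kinases and ubiquitin ligases was called (0 higher and 1 lower at an unadjusted p under 0.05), nor any of 6 subunits of the NCoR-HDAC3 corepressor (1 higher and 0 lower at an unadjusted p under 0.05).

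Rora, one of the activating receptors that bind the ROR response element, had 65.9 ± 8.59 and 79.7 ± 5.70 CPM and was not called (adjusted p = 0.526).

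**Figure D2:**
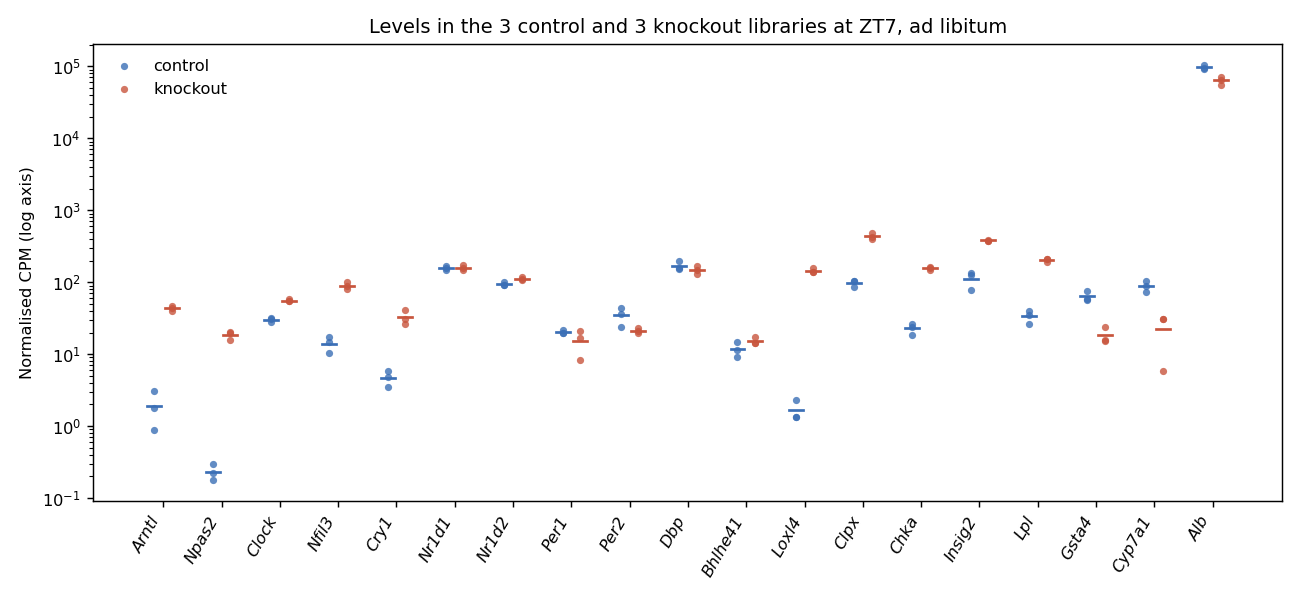
Normalised CPM (log axis) of 19 genes in each of the 3 control (blue) and 3 knockout (red) libraries at ZT7, with bars at the group means. Arntl, Npas2, Cry1, Nfil3 and Loxl4 are separated by wide gaps, whereas Nr1d1, Per1 and Dbp overlap.

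The 250 bases upstream of a RefSeq start (GRCm38.p6, a later build than the mm9 of the deposited tables) are shown for 3 clock genes that rose, because a searched motif lies in each. The sequences run 5′ to 3′ on the strand of the gene, and capitals mark the motif. Clock has 3 RefSeq starts in the table, and the windows of the other 2 held none of the searched motifs. In the window shown (chr5:76303503-76303752, minus strand) it is the half-site AGGTCA read on the opposite strand, ending 114 bases before the start. In Cry1 (chr10:85185055-85185304, minus strand) it is an E-box ending 55 bases before the start. In Nfil3 (chr13:52981040-52981289, minus strand) it is TAGGTCA, the half-site with the T that precedes it in the ROR response element, on the opposite strand and ending 6 bases before the start.
Clock: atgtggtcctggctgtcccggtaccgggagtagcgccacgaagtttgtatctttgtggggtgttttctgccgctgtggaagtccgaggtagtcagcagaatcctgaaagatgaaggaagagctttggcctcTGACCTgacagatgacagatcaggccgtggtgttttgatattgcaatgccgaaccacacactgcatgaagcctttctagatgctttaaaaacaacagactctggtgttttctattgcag
Cry1: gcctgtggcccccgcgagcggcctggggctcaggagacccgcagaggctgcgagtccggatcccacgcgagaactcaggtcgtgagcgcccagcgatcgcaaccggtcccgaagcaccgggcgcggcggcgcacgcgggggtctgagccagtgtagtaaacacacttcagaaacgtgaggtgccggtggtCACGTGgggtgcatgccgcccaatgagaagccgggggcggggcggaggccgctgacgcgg
Nfil3: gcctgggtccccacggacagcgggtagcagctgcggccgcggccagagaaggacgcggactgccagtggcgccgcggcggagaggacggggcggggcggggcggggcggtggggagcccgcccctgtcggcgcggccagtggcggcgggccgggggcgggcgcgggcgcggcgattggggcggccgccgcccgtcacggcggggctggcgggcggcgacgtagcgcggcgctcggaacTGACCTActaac
Motifs were searched on both strands, and a match is a description of the letters only. TAGGTCA, which contains AGGTCA, stood in 2.23% of the 32851 promoters of the RefSeq table and in 1.9% of the promoters of tested genes. It stood in 13 of 393 promoters of genes called higher (3.31%) and in 2 of 279 promoters of genes called lower (0.72%). Among genes called higher by at least 2-fold it stood in 7 of 139 promoters (5.04%). These counts are small, and the 393 promoters belonged to only 290 genes. AGGTCA stood in 14.0% of all promoters, 11.5% of those of tested genes, 15.5% of those called higher and 12.5% of those called lower. CACGTG stood in 6.02%, 8.25%, 9.92% and 11.1% of the same sets. The D-box forms TTATGTAA and TTACGTAA together stood in 0.93%, 0.67%, 0.76% and 2.51%. In the 139 promoters of genes called higher by at least 2-fold, AGGTCA stood in 16.5%, CACGTG in 9.35% and the D-box forms in 0.72%. Of the 12571 tested genes 9589 had a promoter in the table. Among the named genes that rose, Plin2 and Stat5a also held TAGGTCA, and the upstream windows of Arntl, Npas2, Loxl4 and Clpx held none of the searched letters.

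Outside the clock the largest rise was that of Loxl4, a lysyl oxidase that crosslinks collagen and elastin (NM_001164311, chromosome 19, 42666769 to 42687296). It had 1.34, 1.34 and 2.29 CPM in controls and 139, 138 and 160 CPM in knockouts, a log2 fold change of 6.49 ± 0.35 (adjusted p = 4.63e-16). Cdkn1a, which encodes the cell cycle inhibitor p21, had 1.34, 3.87 and 4.22 CPM in controls and 80.8, 76.3 and 94.8 CPM in knockouts, a rise of 4.82 ± 0.57 (adjusted p = 4.14e-07). Both genes went from a few CPM to at least 76.3 CPM in all 3 knockout libraries. Ndrg1, a stress-responsive gene, had 12.3, 16.5 and 12 CPM in controls and 129, 99.8 and 124 CPM in knockouts (3.12 ± 0.30, adjusted p = 3.11e-09). Cyp17a1, a steroid hydroxylase and lyase, rose from 2.83 ± 1.47 to 25.0 ± 9.5 CPM (SD, n = 3), and the glutamate receptor gene Gria3 from 0.79 ± 0.17 to 6.29 ± 3.53 CPM. 2 noncoding transcripts were also among the 10 largest rises at a mean log2 CPM of at least 1, B930025P03Rik (3.57 ± 0.30) and D630024D03Rik (2.88 ± 0.44), with Npas2 and Arntl.

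The largest fall was that of Mup17, a major urinary protein gene, but its controls were far apart. They had 522, 10.5 and 102 CPM, against 2.03, 1.57 and 1.94 CPM in knockouts, a log2 fold change of -6.83 ± 1.68 (adjusted p = 0.0104). Major urinary protein genes are near-identical copies, so reads can be split between them and the value is uncertain. Acot3, a peroxisomal acyl-CoA thioesterase, had 5.13, 12.8 and 23.8 CPM in controls and 0, 0 and 1.45 CPM in knockouts (-4.67 ± 1.01, adjusted p = 0.00297). Lect1 fell from 7.01 ± 2.35 to 0.55 ± 0.16 CPM (adjusted p = 0.000106), and Ppp1r1b, an inhibitor of protein phosphatase 1, from 7.09 ± 1.63 to 1.38 ± 0.06 CPM (adjusted p = 7.66e-07). Angptl8, a feeding-induced inhibitor of lipoprotein lipase, had 92.2, 89.3 and 59.5 CPM in controls and 8.95, 15.7 and 30.0 CPM in knockouts (-2.13 ± 0.58, adjusted p = 0.0228). The other 5 were Cyp2b10 (-2.80), Gstt3 (-2.03), Cyp7a1 (-1.98), Meg3 (-1.98) and Gadd45a (-1.95). The calls of Acot3, Lect1, Ppp1r1b, Gstt3 and Gadd45a, like those of the large rises named above, were made in all 6 fits without 1 ZT7 library. Mup17 was no longer called without control 1, knockout 2 or knockout 3, Angptl8 without control 1, control 2, knockout 1 or knockout 2, and Meg3 without any 1 library but control 3. Cyp2b10 was no longer called without any 1 library but control 1.

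Genes that had been proposed as REV-ERB targets outside the clock were described as a list of 18, of which Loxl4 and Clpx were included with earlier results of these data known. Of these, 6 rose (Loxl4, Lpl, Fgf21, Clpx, Insig2 and Plin2), 2 fell (Cyp7a1 and Nampt) and 10 were not called, with a median log2 fold change of 0.38. Over all tested genes 3.08% were called higher and 2.27% lower. Clpx, the unfoldase subunit of a mitochondrial protease (NM_011802, chromosome 9, 65142067 to 65178465), had 85.8, 102 and 103 CPM in controls and 427, 403 and 488 CPM in knockouts. It rose by 2.18 ± 0.12 (adjusted p = 3.81e-17) and was the only one of 16 mitochondrial protease genes that was called. Lpl, lipoprotein lipase, had 26.2, 40.1 and 35.0 CPM in controls and 210, 193 and 207 CPM in knockouts (2.60 ± 0.32, adjusted p = 8.72e-07). Insig2, which retains SREBP in the endoplasmic reticulum, had 76.9, 135 and 124 CPM in controls and 375, 376 and 390 CPM in knockouts (1.77 ± 0.20, adjusted p = 3.56e-08). Fgf21, a fasting hormone, was scarce, at 0.49 ± 0.35 and 2.81 ± 0.45 CPM (adjusted p = 0.0472), and it was not called in any of the 6 fits without 1 library or by DESeq2. Nampt, the rate-limiting enzyme of NAD salvage, fell from 68.4 ± 7.59 to 43.5 ± 5.98 CPM (adjusted p = 0.00782), a call lost without control 3 or knockout 1.

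Of 7 genes of SREBP and sterol sensing, Srebf1 fell and Insig2 rose, beside 2.27% lower and 3.08% higher over all tested genes. Srebf1, which encodes the SREBP1 activator of lipogenic genes, had 497, 313 and 298 CPM in controls and 152, 178 and 129 CPM in knockouts, a fall of 1.27 on the log2 scale (SE 0.29, adjusted p = 0.00543). The call was lost without control 1, the highest control. By edgeR and DESeq2, none of 23 tested cholesterol synthesis genes was called (median log2 fold change -0.34; 0 higher and 5 lower at an unadjusted p under 0.05). Their summed level was 2897 to 3823 CPM in controls and 1500 to 3451 CPM in knockouts, so the groups overlapped. None of 22 lipogenesis and triglyceride synthesis genes was called either (median 0.02; 2 higher and 3 lower at an unadjusted p under 0.05).

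Genes of lipid droplets and fatty acid use were called in both directions, beside 3.08% higher and 2.27% lower over all tested genes. Of 23 tested genes of fatty acid uptake and lipid droplets, Lpl, Plin2, Plin5, Abhd5 and Lipc rose and Angptl8 fell (DESeq2 called 5 higher and 2 lower). Plin2, a lipid droplet coat protein (NM_007408, chromosome 4, 86302469 to 86315963), had 307, 275 and 313 CPM in controls and 584, 602 and 679 CPM in knockouts, a rise of 1.06 ± 0.16 (adjusted p = 1.34e-05). Of 30 fatty acid oxidation and ketogenesis genes, 2 rose (Pdk4 and Fgf21), 4 fell (Acot3, Acot1, Acot4 and Acaa1b) and the median was -0.05. The 3 thioesterase genes are related copies on 1 chromosome, so reads may be shared among them. Pdk4, a kinase that switches off pyruvate dehydrogenase, had 2.23, 9.81 and 4.22 CPM in controls and 53.4, 37.6 and 23.1 CPM in knockouts (2.85 ± 0.54, adjusted p = 0.000737). Among 26 genes of glucose uptake, glycolysis and glycogen, Ppp1r3b and Gys2, both of glycogen storage, rose with Pdk4, while Pdk2 and Gapdh fell. Ppp1r3b, which brings a phosphatase to glycogen, rose from 149 ± 24.5 to 354 ± 77.3 CPM (adjusted p = 0.00119). Gapdh has many processed pseudogenes and was counted at only 5.50 ± 1.62 and 2.89 ± 0.31 CPM, so its value is uncertain. Of 13 gluconeogenesis genes only Pcx, pyruvate carboxylase, was called, with a rise of 0.38 ± 0.11 (adjusted p = 0.0356) that was lost in 4 of the 6 fits without 1 library.

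In the bile acid list the 2 hydroxylases that set the amount and composition of bile acids moved apart. Cyp7a1, the rate-limiting enzyme of the classical pathway (NM_007824, chromosome 4, 6192759 to 6202778), had 72.7, 89.0 and 106 CPM in controls and 31.1, 31.2 and 5.81 CPM in knockouts, a fall of 1.98 on the log2 scale (SE 0.54, adjusted p = 0.0241). All 3 knockout libraries were below all controls, with knockout 3 the lowest, and the call was lost without control 2, control 3 or knockout 3. Cyp8b1, the sterol 12-alpha hydroxylase that makes cholic acid (NM_010012, chromosome 9, 121823474 to 121825423), had 185, 234 and 169 CPM in controls and 790, 674 and 580 CPM in knockouts, a rise of 1.80 ± 0.29 (adjusted p = 8.59e-05). Of the other 20 tested members Abcb4, a phospholipid exporter, rose and Abcg8, a sterol exporter, fell, and DESeq2 called 2 of the 22 higher and 4 lower. The edgeR shares over all tested genes were 3.08% higher and 2.27% lower. Abcg8 was called in 2 of the 6 fits without 1 library.

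Genes that conjugate drugs and hormones were called in both directions, against shares of 3.08% higher and 2.27% lower over all tested genes. Of 21 tested glucuronosyl- and sulfotransferases 6 fell and 1 rose, with a median of -0.10. Sult1a1, a phenol sulfotransferase, had 207, 208 and 209 CPM in controls and 87.5, 62.8 and 88.4 CPM in knockouts (-1.39 ± 0.23, adjusted p = 9.29e-05). The other 5 that fell are Ugt1a transcripts, led by Ugt1a9 at -0.65 ± 0.12. These transcripts share their last exons, so they are not 5 separate measurements. Of 21 glutathione transferases 4 fell (Gstt3, Gsta4, Mgst3 and Gstt1) and 4 rose (Gstm3, Gstm2, Gstm7 and Gstm6). The mu class members called were all higher, and those called lower belong to the theta (Gstt3, Gstt1), alpha (Gsta4) and microsomal (Mgst3) classes. Gsta4, which clears lipid aldehydes, had 55.8, 75.5 and 59.1 CPM in controls and 15.9, 15.2 and 24.2 CPM in knockouts (-1.78 ± 0.26, adjusted p = 1.64e-05). The mu class genes are close copies, and their split is uncertain. Of 31 drug-metabolising cytochromes and partners 3 rose and 4 fell. Cyp2a5, a coumarin hydroxylase, had 1602, 1535 and 1120 CPM in controls and 4467, 3420 and 5875 CPM in knockouts (1.69 ± 0.33, adjusted p = 0.00103). Its near-identical neighbour Cyp2a4 was called as well, at 2.15, and the 2 cannot be separated with certainty.

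Phosphatidylcholine synthesis, NAD, iron and growth factor genes were described as lists, beside 3.08% higher and 2.27% lower over all tested genes. Of 16 tested phosphatidylcholine synthesis genes, Chka and Phospho1 rose and Ahcy and Etnk2 fell. The call of Ahcy was lost without control 3 or knockout 2, and Etnk2 had an edgeR adjusted p of 0.0464. Chka, choline kinase (NR_073190, chromosome 19, 3851773 to 3894369), had 18.3, 26.5 and 23.8 CPM in controls and 163, 149 and 159 CPM in knockouts, a rise of 2.79 ± 0.19 (adjusted p = 1.07e-13). Of 22 NAD and sirtuin genes, 4 fell (Nampt, Afmid, Naprt and Sirt7) and 1 rose (Kynu). Of 17 iron handling genes, Cp, Steap3 and Slc11a2 rose by 0.45 to 0.71 on the log2 scale. In the growth factor list both Stat5a and Stat5b, transducers of growth hormone, rose, by 0.75 and 0.65, with Fgf21, and Txnip fell by 1.17 on the log2 scale. Txnip and Steap3 were not called in any of the 6 fits without 1 library, Slc11a2 was called in 1 and Stat5a in 3.

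Calls in secreted and housekeeping groups stand beside shares of 3.08% higher and 2.27% lower over all tested genes. Of 24 acute-phase genes Cp and Itih3 rose and Saa4 and Crp fell, and of 31 complement and coagulation genes C9 and F11 rose (medians -0.17 and 0.08). Itih3 and C9 were each lost in 5 of the 6 fits without 1 library, and F11 in 2. DESeq2 called 4 complement and coagulation genes higher and 1 lower. Of 80 ribosomal protein genes Rps16 and Rps21 fell (median -0.16), of 31 proteasome genes Psmd11 rose (median -0.12, with 2 higher and 7 lower at an unadjusted p under 0.05), and of 85 oxidative phosphorylation genes Sdha and Ndufs1 rose (median 0.01; 5 higher by DESeq2). Rps16 was called in none of the 6 fits without 1 library, Rps21 in 2 and Psmd11 in 1. By edgeR and DESeq2, none of 13 urea cycle genes (0 higher and 2 lower at an unadjusted p under 0.05) and none of 16 heat shock and cold-inducible genes (0 higher and 1 lower at an unadjusted p under 0.05) was called.

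**Figure D3:**
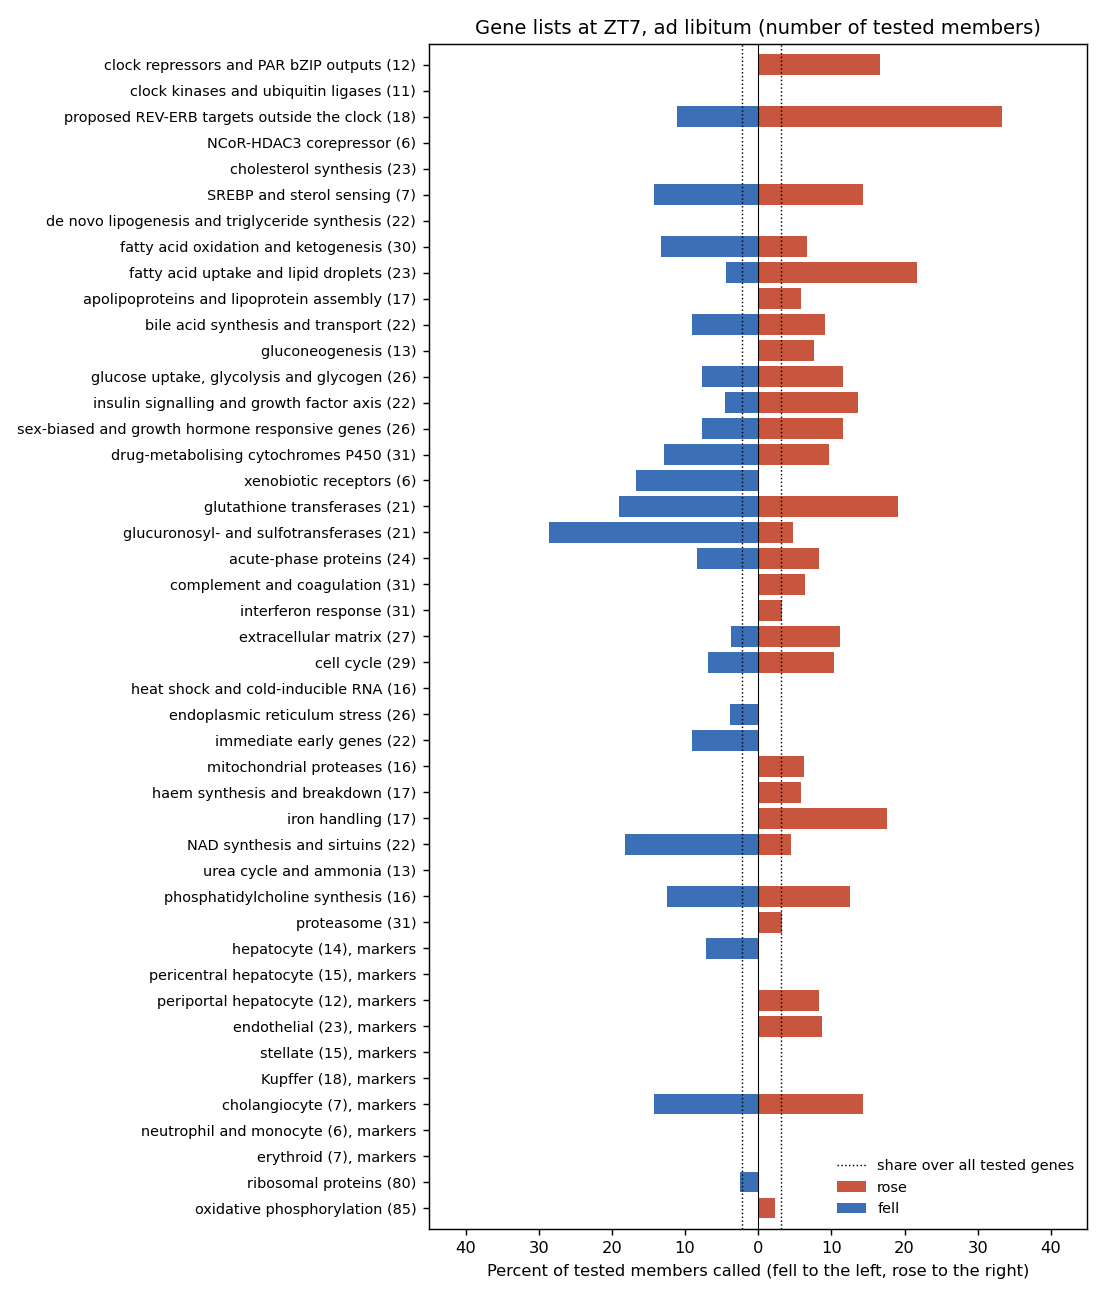
Share of the tested members of each gene list that was called at ZT7, with rises to the right in red and falls to the left in blue. The dotted lines mark the shares over all tested genes, 3.08% higher and 2.27% lower. The 18 proposed REV-ERB targets reach farthest to the right with 6 members higher. Among these 6, Loxl4 and Clpx were listed with earlier results of these data known. Fgf21 was called in 0 of the 6 fits without 1 ZT7 library. Lists with fewer than 5 tested members, the 4 clock activators among them, are not drawn.

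Summed markers of endothelial and stellate cells were higher on the knockout side, and those of Kupffer cells overlapped. In whole liver a change in the number of cells of a type and a change in RNA per cell cannot be told apart. Of 23 endothelial markers Oit3 and Eng were called, with rises of 0.87 and 0.49, each call lost in 4 of the 6 fits without 1 library, and DESeq2 called 4 of the list higher. Among all tested genes 3.08% were called higher by edgeR. The median over the endothelial list was 0.55 and 18 of the 23 had all knockout libraries above all controls. The same held for 13.1% of all tested genes, 8 of 15 stellate markers and 0 of 18 Kupffer markers. The endothelial markers summed to 307 to 383 CPM in controls and 444 to 512 CPM in knockouts. Stellate markers, none of 15 called by edgeR or DESeq2 (4 higher and 0 lower at an unadjusted p under 0.05), summed to 336 to 346 CPM in controls and 396 to 490 CPM in knockouts (median 0.42). Kupffer markers, none of 18 called by either (0 higher and 0 lower at an unadjusted p under 0.05), overlapped, at 534 to 691 and 568 to 803 CPM (median 0.26). The defining genes Stab2 (endothelial) and Lrat (stellate) had log2 differences of 0.43 ± 0.15 and 0.92 ± 0.45, and Clec4f (Kupffer) and Krt19 (bile duct) of 0.25 and -0.10, none called. Hepatocyte markers summed to 166727 to 183524 CPM in controls and 135511 to 150883 CPM in knockouts. Alb, with means of 97030 CPM in controls and 63940 CPM in knockouts, was a large part of these sums. The median log2 fold change of the 14 markers was 0.07, with 3 higher and 3 lower in all knockout libraries than in all controls. Alb alone was called, with a fall of 0.60 on the log2 scale (SE 0.15, edgeR adjusted p = 0.00804), a call lost without control 2 or knockout 2. Beside these values stand the medians of the extracellular matrix list (0.47, with Loxl4, Col4a1 and Col18a1 higher and Col27a1 lower among 27) and the interferon list (0.46, with Irf7 higher among 31). Col4a1 was called in 1 and Irf7 in 2 of the 6 fits without 1 library. The part of the marker levels in those lists was not tested.

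Whether the effect at ZT7 was particular to that time was tested against ZT19, which lies 12 h away, and against the mean of the 7 other times. The ZT7 effect was more positive than the ZT19 effect for 105 genes (0.835% of 12571) and more negative for 17 (0.135%). Against the other 7 times it was more positive for 114 genes (0.907%) and more negative for 28 (0.223%). DESeq2 gave 37 genes more negative than at ZT19 and 55 more negative than at the other times. Without control 1 these counts were 65 more positive than at ZT19, and 53 more positive and 10 more negative than at the other times. Counts of more negative genes were 9 (ZT19) and 7 (other times) without knockout 2, and 11 and 14 against the other times without control 3 and knockout 3. Without the 2 libraries set apart 49 were more negative than at the other times. These comparisons share the ZT7 libraries with the effect itself, so the values are given side by side. Arntl had the smallest p in both. Its effect was 4.54 at ZT7 and 0.42 ± 0.14 at ZT19, a difference of 4.12 (adjusted p = 7.14e-16), and it exceeded the mean of the other times by 3.11 (adjusted p = 1.14e-13). ZT7 was not the single extreme, since the effect was 4.71 ± 0.21 at ZT10 and 2.31 ± 0.17 at ZT13. In knockouts Arntl stayed between means of 35.3 and 51.6 CPM over the 8 times, whereas control means ran from 1.51 CPM at ZT10 to 46.6 CPM at ZT1.

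Clpx, like Arntl, was low in controls at ZT7 and ZT10. It had an effect of 2.18 ± 0.12 at ZT7, 2.68 ± 0.13 at ZT10 and 0.11 ± 0.12 at ZT19, with control means from 70.9 CPM at ZT10 to 422 CPM at ZT1 and knockout means from 307 to 456 CPM. Nfil3 differed by 2.24 from ZT19 and by 1.67 from the other times, with an effect of 2.70 at ZT7 and 2.23 ± 0.18 at ZT10. Cry1 differed by 3.09 from ZT19, where its levels were 44.1 ± 3.34 and 37.1 ± 5.78 CPM. Its effect was 2.84 at ZT7, 2.31 ± 0.22 at ZT4 and 2.32 ± 0.20 at ZT10. Pxmp4, a peroxisomal membrane protein, rose by 1.21 ± 0.10 at ZT7, from 49.6 ± 3.39 to 114 ± 16.3 CPM, and differed by 1.5 from ZT19 and by 1.15 from the other times. Its effect was 0.73 ± 0.10 at ZT10 and 0.68 ± 0.10 at ZT13, and -0.44 ± 0.10 at ZT1 and -0.30 ± 0.10 at ZT19. In Plin2 the knockout mean at ZT7, 622 CPM, was above its means at the other times, while the control mean was 298 CPM at ZT7 and lowest at ZT13, 189 CPM. It had an effect of 1.06 ± 0.16 at ZT7 against -0.46 to 0.10 at the 7 other times. It differed from their mean by 1.31 (adjusted p = 3.51e-06). In the opposite direction, Nr1d1 and Nr1d2 had effects of 0.02 and 0.24 at ZT7 and of 3.33 ± 0.41 and 2.64 ± 0.24 at ZT19, where control levels were low (differences of -3.32 and -2.40).

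**Figure D4:**
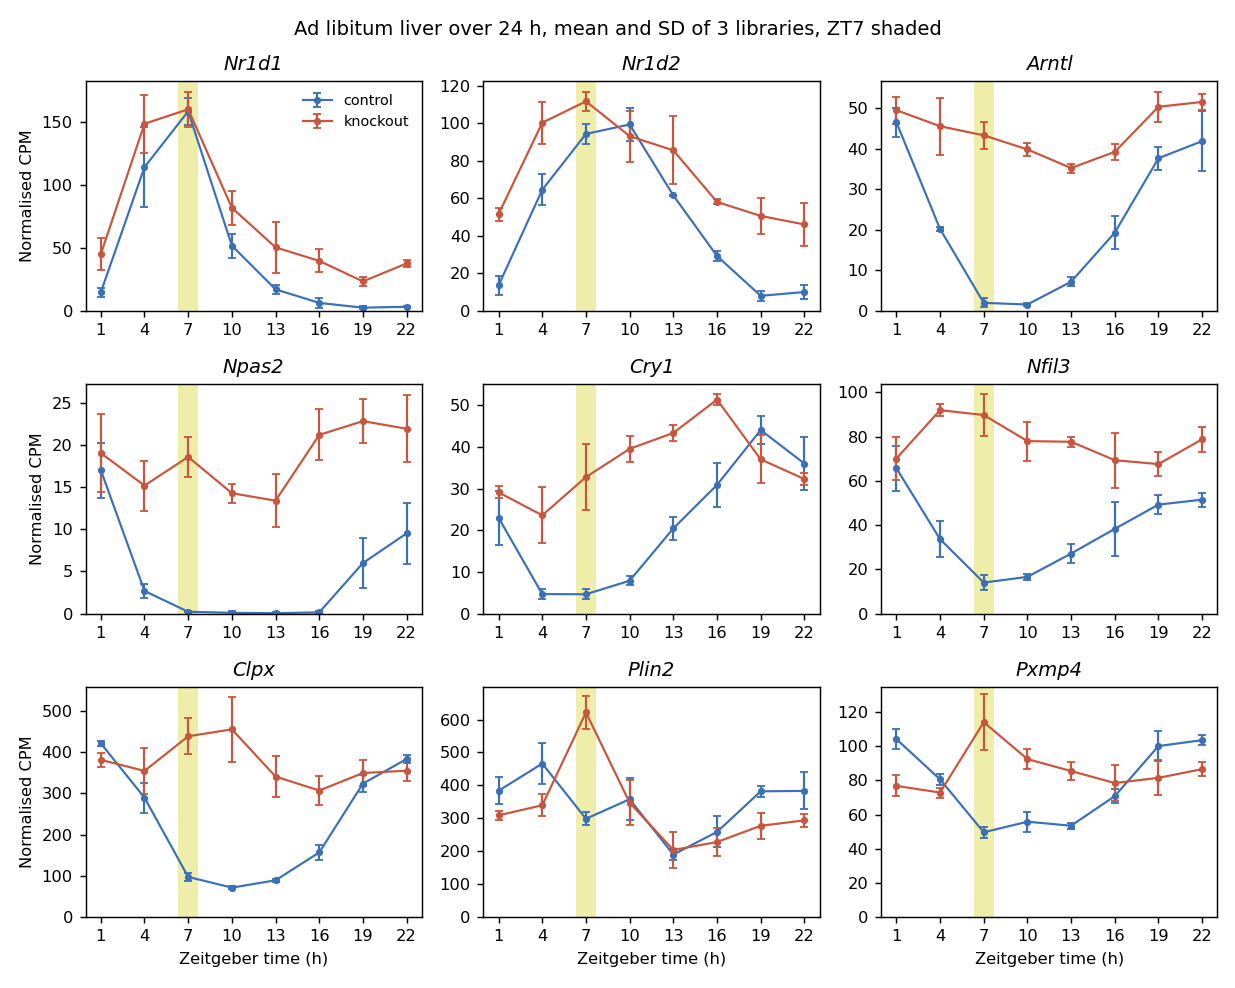
Mean normalised CPM (points, with SD of 3 libraries) of 9 genes against zeitgeber time in ad libitum control (blue) and knockout (red) liver, with ZT7 shaded. Arntl, Npas2, Nfil3 and Clpx are low in controls around ZT7 and high in knockouts, whereas Nr1d1 peaks at ZT7 in both groups.

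The position of the called genes in the control day was read from libraries that did not enter the ZT7 comparison, as the mean of control ZT16 and ZT22 against the mean of control ZT4 and ZT10. By this measure 1503 tested genes (12%) were low around ZT7 and 1514 (12%) were high; without the 2 libraries set apart, which enter this measure, the counts were 1388 and 1509. Of the 387 genes higher in the knockout, 111 were low around ZT7 in controls (28.7%, and 7.39% of the 1503) and 66 were high (17.1%, and 4.36% of the 1514). Of the 285 lower genes, 39 were low (13.7%, and 2.59% of the 1503) and 51 were high (17.9%, and 3.37% of the 1514). On the log2 scale this control difference was 2.45 for Cry1, 2.36 for Arntl, 1.01 for Clock and 0.77 for Clpx, all low around ZT7, and -4.17 for Nr1d1 and -3.41 for Dbp, both high.

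Livers labelled reverse-phase feeding gave a further set of 3 control and 3 knockout libraries at ZT7, with 19241198 to 26196772 counts. Pairs of these libraries within a group had a chi-square of 11.43 to 68.86 per degree of freedom, against 5.82 to 15.35 ad libitum. This value also grows with depth. Under reverse-phase feeding 241 of 13842 tested genes were higher in the knockout (1.74%) and 187 lower (1.35%). Leaving out 1 of these libraries lowered the counts to 160 and 123 (control 1), 150 and 118 (control 3) or left 117 lower genes (knockout 2). Of the 387 genes higher ad libitum, 110 were also higher here (28.4%, and 47.2% of 233 such genes tested in both). Of the 285 lower genes 68 were also lower (23.9%, and 37.4% of 182), and none was called in the opposite direction. Called or not, 336 of the 387 and 270 of the 285 had the same sign. The share with the same sign over all genes tested in both was not computed, so these counts stand without a background. Loxl4 and Npas2 were called under both schedules. Loxl4 had 2.54 ± 0.42 and 120 ± 27.3 CPM and Npas2 0.24 ± 0.12 and 16.3 ± 0.90 CPM under reverse-phase feeding (SD, n = 3), log2 fold changes of 5.56 and 6.06.

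At the same clock time control Nr1d1 had unlike levels under the 2 schedules. Under reverse-phase feeding control Nr1d1 had 11 ± 3.33 CPM at ZT7 and 81.0 ± 9.69 CPM at ZT19, and the knockout 60.1 ± 16.3 and 114 ± 11.8 CPM. Reverse-phase-fed control means of Arntl (15.2 and 9.04 CPM) and Cry1 (38.5 and 9.06 CPM) were higher at ZT7 than at ZT19, unlike ad libitum. Those of Clpx (194 and 255 CPM) and Insig2 (165.5 and 289.5 CPM) were lower at ZT7, as they were ad libitum. The knockout effect at ZT7 was more positive ad libitum for 48 of 13570 genes (0.354%) and more negative for 6 (0.0442%), with 23 more positive without ad libitum control 1 and 29 without ad libitum knockout 2. Arntl led, with control levels of 1.93 ± 1.12 CPM ad libitum and 15.2 ± 0.81 CPM reverse-phase-fed, and a difference of effects of 3.36 (adjusted p = 1.03e-10). Cry1 differed by 2.35 and Lgalsl, a galectin-like gene, by 1.77. Hectd2 and 1500017E21Rik differed in the opposite direction, by -3.27 and -3.45. Hectd2 rose by 1.25 ± 0.28 ad libitum, from 35.6 ± 8.43 to 84.2 ± 30.5 CPM (a call lost without control 1 or knockout 3), and by 4.52 under reverse-phase feeding, from 13 ± 3.52 to 298 ± 41.5 CPM. These 2 genes overlap on opposite strands of chromosome 19 (36629129 to 36695625 and 36693908 to 36763969), and without a stated strand setting their reads cannot be told apart.

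Because of the Nr1d1 levels, reverse-phase-fed ZT19, where control Nr1d1 was high, was compared as well, a choice made after the data were seen. There 169 genes were higher in the knockout (1.22%) and 116 lower (0.838%). Of the genes called ad libitum at ZT7, 102 of the 387 were higher there (26.4%, and 63% of 162) and 40 of the 285 lower (14%, and 35.1% of 114). The ad libitum ZT7 effect was more positive than the reverse-phase-fed ZT19 effect for 6 genes (0.0442%), Arntl, Clpx, Gpd1, Plin2, Pxmp4 and Lrfn3, and more negative for none (0%; edgeR, with 281 at an unadjusted p under 0.05; DESeq2 was not run for it). Cry1, with effects of 2.84 ad libitum and 2.20 at reverse-phase-fed ZT19, and Nfil3, with 2.70 and 1.97, were not called different between these. Arntl was, with 4.54 against 2.14 and a difference of 2.40 ± 0.35 (adjusted p = 2.73e-05). Plin2 had an effect of 1.06 at ad libitum ZT7 and of -0.21 and -0.23 at reverse-phase-fed ZT7 and ZT19. Feeding and the other differences between the 2 tables, among them depth and the spread among libraries, cannot be told apart.

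**Figure D5:**
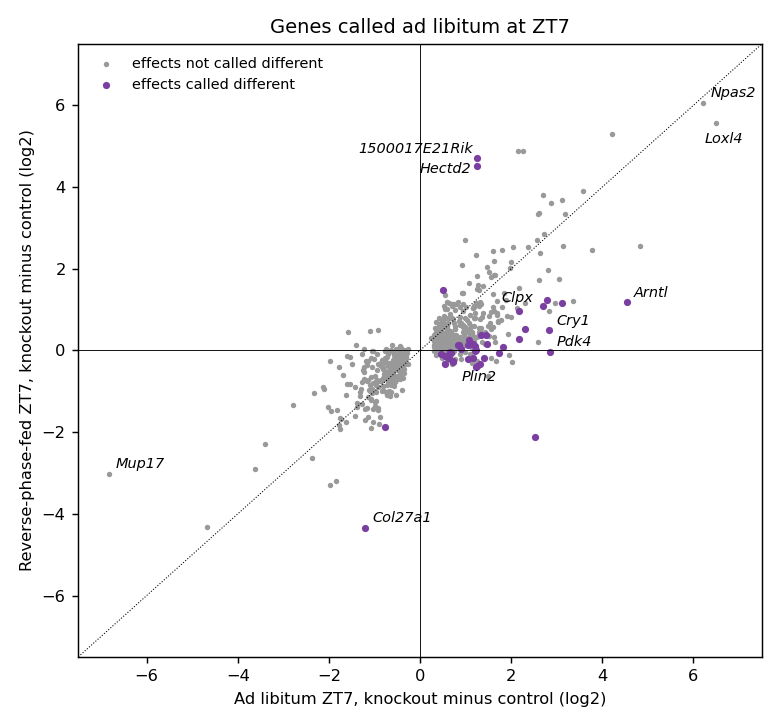
Log2 fold change of knockout over control at ZT7 under reverse-phase feeding (vertical axis) against that under ad libitum feeding (horizontal axis) for the genes called ad libitum and tested in both. Purple points are genes whose 2 effects were called different, with Arntl and Cry1 below the dotted line of equal effects and Hectd2 and 1500017E21Rik above it.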

How the data were processed

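Per the labels' protocols, whole-liver RNA came from a Trizol and column extraction, and libraries were TruSeq. STAR, HOMER and the mm9 genome build are named in the submitters' processing notes, with no versions; the sources used here give no strand setting. The deposited liver tables, 1 per feeding schedule, hold expected counts per transcript: values are multiples of 0.5, 29.5% of them not whole in the ad libitum table and 31.9% in the reverse-phase-fed one. Tables of other cell types were not used here. Values were rounded to whole numbers (0.5 upward), and each of 24421 symbols, from 34600 transcript rows, was measured on the transcript with the largest mean over both tables. Libraries were grouped by the submitters' labels.

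Counts were filtered (filterByExpr), scaled by TMM and fitted with edgeR 4.0.16 in R 4.3.3, 1 mean per genotype and time over all 48 ad libitum libraries, with robust quasi-likelihood tests and Benjamini-Hochberg adjustment over all tested genes. A call is an adjusted p under 0.05. CPM are TMM-scaled. The 2 schedules were tested against each other in 1 fit of 96 libraries. Scripts were tested on simulated data. The text names the clock genes, the 10 largest rises and 10 largest falls at a mean log2 CPM of at least 1, in each list the called members of largest change (at most 3), and the 5 smallest p of each interaction; some genes under this rule are not reported here, and other genes named as members of a list or a count were chosen after their values were seen. The groups, gene lists and tests were chosen with earlier results of these data known.

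Deviations of same-numbered reverse-phase-fed libraries had correlations of 0.342, 0.215 and 0.188. Control 3 and knockout 2 of that schedule had 0.206, so the values do not settle whether the numbers pair libraries. Same-numbered ad libitum libraries had 0.018, -0.041 and -0.041. Alternatives were DESeq2 1.42.0 and its size factors, other filters, a replicate block, the longest transcript, a fit of the 6 ZT7 libraries, and fits without single libraries.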

Additional observations from a re-analysis of the deposited data

Results flagged for a closer look

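Several results stand here because the knockout effect at ZT7 differed from the effect elsewhere by an interaction term (edgeR, adjusted p under 0.05). Against ZT19 the effect was more positive for 105 genes and more negative for 17. Against the mean of the 7 other times it was more positive for 114 and more negative for 28. Against reverse-phase-fed ZT7 it was more positive ad libitum for 48 and more negative for 6, and against reverse-phase-fed ZT19 more positive for 6 and more negative for 0 (281 at an unadjusted p under 0.05; DESeq2 was not run for it).

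Among single genes, the differences from ZT19 on the log2 scale were 4.12 for Arntl, 3.09 for Cry1, 2.07 for Clpx and 1.5 for Pxmp4. The differences from the other times were 3.11 for Arntl, 1.67 for Nfil3, 1.36 for Clpx and 1.15 for Pxmp4. The differences from reverse-phase-fed ZT7 were 3.36 for Arntl, 2.35 for Cry1, 1.77 for Lgalsl, -3.27 for Hectd2 and -3.45 for 1500017E21Rik. These genes were chosen by their p, and the contrasts share the ad libitum ZT7 libraries. Groups of 3 libraries are too small for the check on single libraries that stand apart.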

How the results depend on the processing

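None of the 78 called named genes followed at ad libitum ZT7 changed sign under the alternatives run. The larger direction of each count stayed the same, except for the control rhythm, near even at 1503 low and 1514 high around ZT7. There it turned over in several settings, with 1546 low and 1470 high without the 45S transcript. Of the 672 calls, 648 were shared with DESeq2 and 558 with the fit of the 6 ZT7 libraries alone; the share of calls that were higher stayed between 57.4% and 58.4% under other scalings. Requiring a fold of at least 1.5 left 169 lower genes. Leaving out 1 ZT7 library at a time gave 197 to 328 higher and 136 to 221 lower genes ad libitum, with falls of over 1.5 times without control 1 (197 higher, 146 lower), control 3 (185 lower) and knockout 2 (136 lower). The same step gave 65 to 95 and 9 to 20 genes for the difference from ZT19, 53 to 103 and 7 to 25 for that from the other times, 150 to 195 and 117 to 163 for reverse-phase-fed ZT7, and 23 to 40 and 4 to 6 for the difference between schedules (more positive or higher first).

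DESeq2 gave 37 genes more negative than at ZT19, 55 more negative than at the other times and 10 more negative ad libitum than reverse-phase-fed. Without the 2 control libraries set apart, 49 were more negative than at the other times. With no low-count filter 29 genes were more positive ad libitum than reverse-phase-fed, and the 6 reverse-phase-fed ZT7 libraries alone gave 137 higher genes. With reverse-phase-fed ZT19 in place of ZT7, an alternative chosen after the data were seen, 6 genes were more positive ad libitum, 0 more negative, and 116 were lower in that knockout. The cause of these shifts was not tested.

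With the replicate block the counts were 356 higher and 245 lower ad libitum, 96 and 19 against ZT19, 105 and 21 against the other times, 196 and 168 reverse-phase-fed, and 41 and 4 between schedules, so it moved no count by over 1.5 times; ad libitum libraries share only a number. With 3 libraries a group and 5635963 to 8847332 counts, genes of a few CPM were measured with large error, and a missed call does not show that a gene did not change.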

Other observations

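Of 29 tested cell cycle genes, 3 rose (Cdkn1a, Gadd45g and Ccnd2) and 2 fell (Gadd45a and Wee1), with a median log2 fold change of 0.15. List counts here stand beside 3.08% higher and 2.27% lower over all tested genes. Gadd45g, a growth arrest and DNA damage inducible gene, had 1.45, 2.53 and 11.8 CPM in controls and 52.3, 42.1 and 9.45 CPM in knockouts, so knockout 3 lay below the highest control. It was called in 2 of the 6 fits without 1 ZT7 library. Its relative Gadd45a had 7.81, 6.39 and 4.58 CPM in controls and 1.63, 1.97 and 1.33 CPM in knockouts, with no overlap. Wee1, a kinase that holds back mitosis and a known clock output, fell by 0.96 on the log2 scale. Of 26 tested sex-biased and growth hormone responsive genes, Cyp17a1, Cyp2a4 and Mup20 rose and Mup17 and Cyp2b10 fell, with a median of 0.14. Saa4, a constitutive serum amyloid A, had 505, 529 and 676 CPM in controls and 259, 210 and 222 CPM in knockouts (-1.31 ± 0.28, edgeR adjusted p = 0.00236). Of 7 tested bile duct markers Sox9 rose, from 3.92 ± 1.35 to 12.4 ± 2.20 CPM (SD, n = 3; adjusted p = 0.00014), and Anxa4 fell, from 49.0 ± 2.43 to 38.0 ± 2.85 CPM (adjusted p = 0.0243), with a median of -0.10.

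The genes named next were chosen after their values were seen. Rian and Meg3, maternally expressed noncoding RNAs, lie next to each other on mm9 chromosome 12 (110842155 to 110899921 and 110779206 to 110809939). Rian had 4.13, 2.68 and 1.58 CPM in controls and 0.41, 0.26 and 0.12 CPM in knockouts (-3.40 ± 0.79, edgeR adjusted p = 0.00504). Meg3 had 5.58, 4.61 and 1.76 CPM in controls and 1.22, 0.79 and 1.09 CPM in knockouts. Both were low and both were called lower in reverse-phase-fed knockouts at ZT7 as well, with log2 fold changes of -2.30 and -3.30.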
